A study of Rattus norvegicus with 18 samples.

Results

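miR-22 is a microRNA (miRNA) gene whose hairpin transcript gives 2 mature strands, or arms: miR-22-5p from the first side of the stem and miR-22-3p from the other. Both arms, listed as rno-miR-22-3p and rno-miR-22-5p, were followed here in rat dorsal root ganglia, the clusters of sensory neurons and their glia beside the spinal cord. They are 2 of the 753 mature miRNAs listed in the small RNA counts, and they were chosen by their counts, as an abundant miRNA of wide spread between libraries. Their level and spread are therefore given as a description, without a test. A miRNA chosen for wide spread is also more likely to differ between groups, and the p-values below are to be read with that in mind.

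The libraries came from 18 Lister hooded rats, 6 in each of 3 groups. Naive rats had no surgery and no treatment. bPYX+GFP rats had both corticospinal tracts cut in the medullary pyramids (bPYX) and then an injection into the forelimb flexor muscles of one side. The injected agent was the adeno-associated virus AAV1 carrying green fluorescent protein (GFP). bPYX+NT3 rats had the same injury and AAV1 carrying human neurotrophin-3 (NT3), a growth factor whose receptor TrkC marks proprioceptive sensory neurons. Each library holds 1 rat, with its C6 to C8 ganglia in a single sample; for injured rats these came from the injected side, 10 weeks after injury. The naive rats lacked both the injury and the virus, so the effects of these cannot be told apart against them. The ganglia were homogenised whole, and fewer cells of a type and less RNA per cell cannot be told apart in such samples. The miRNA counts totalled 3.88 to 6.92 M per library. The sensory neuron miRNAs miR-182 and miR-96-5p averaged 25160 and 4282 counts per M (CPM) over the 18 libraries, while the third member of that list, miR-183-5p, is listed at 0 in every library.

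A miRNA acts as a guide inside an Argonaute protein. It pairs with messenger RNAs through its seed, bases 2 to 8 from the 5′ end, and lowers their translation or stability. Usually the strands of one hairpin are made in equal number, and 1 is kept while the other is largely broken down. Strands that pair with each other carry different seeds, so they recognise different messages. miR-22 is conserved among vertebrates and is best known from heart, skeletal muscle and blood cells, where its 3p strand is the dominant one.

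The sequences of the hairpin and both arms are shown because the findings concern the balance between strands of 1 precursor. They are RefSeq sequences on the rat assembly GRCr8, which is not the build the counts were made on. The hairpin of 95 bases lies at chr10:60805331-60805425 (+), with its arms in capitals, the 5p arm first:
Mir22 hairpin: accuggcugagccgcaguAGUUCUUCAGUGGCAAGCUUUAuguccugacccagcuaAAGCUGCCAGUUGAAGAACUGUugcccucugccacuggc
The mature strands follow, at chr10:60805349-60805370 (+) and chr10:60805387-60805408 (+), with the seed in capitals:
miR-22-5p: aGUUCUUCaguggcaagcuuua
miR-22-3p: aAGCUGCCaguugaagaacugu

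Each arm is 22 bases long, so a comparison of their counts needs no correction for length. How evenly the library preparation captured both strands was not measured, so the ratio of counts need not be the ratio of strands in the tissue. RNAfold folded the hairpin with a free energy of -43.0 kcal/mol, with 16 bases between the arms. In that fold 19 base pairs joined the 5p arm to the 3p arm, and all 7 seed bases of each arm were paired with the other arm. In the RefSeq table no other mature rat miRNA carried either seed, AGCUGCC or GUUCUUC, so neither arm belonged to a seed family there. In the order of genes on the assembly, Mir22 stood between Mir6326 and Tlcd2, with Wdr81 and Prpf8 next on either side. miR-6326, from the neighbouring miRNA gene, had 1 count in all 18 libraries together.

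miR-22-3p was the 8th most abundant of the 373 miRNAs that passed the filter on low counts, which both arms passed. Its level was 27876 ± 6352 CPM (SD, n = 18), after TMM scaling of library sizes. It took 2.81% of all miRNA counts on average, from 1.92% to 5.19% in single libraries. miR-22-5p was the 88th, at 526 ± 85.9 CPM (SD, n = 18). The 3p strand therefore gave 37.8 to 145 times as many counts as the 5p strand of the same hairpin.

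The naive rats were already spread in both arms. miR-22-3p measured 33281, 25892, 22596, 22614, 28911 and 31019.6 CPM in naive replicates 1 to 6. miR-22-5p in the same rats measured 401, 478, 596, 598, 508 and 575 CPM. Naive replicate 1 combined the highest 3p level of its group with the lowest 5p level, and replicates 3 and 4 combined the lowest 3p levels with the highest 5p levels.

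The bPYX+GFP rats were the most uniform group. Their miR-22-3p levels were 23834, 24494, 21125, 21329, 26339 and 24354 CPM. Their miR-22-5p levels were 558, 626, 523, 562, 567 and 613 CPM. All 6 lay below the naive mean of miR-22-3p, and 2 of them lay below the lowest naive rat. Without TMM scaling, as a share of the library's miRNA total, 5 of 6 lay below that mean, with replicate 5 above it at 2.96% against 2.69%. The coefficient of variation (CV, the SD as a percentage of the mean) was 8.53% for 3p and 6.62% for 5p in this group, against 16.2% and 14.9% in naive rats. The gap was smaller for shares of the miRNA total, with 15.6% and 10.7% against 18.6% and 13.1%.

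The bPYX+NT3 rats held the highest miR-22-3p level and the lowest miR-22-5p level of the series. Their miR-22-3p levels were 27575, 25828, 45659.5, 28498, 39412 and 29003 CPM in replicates 1 to 6. Their miR-22-5p levels were 545, 576, 315, 585, 397 and 451 CPM. Replicates 3 and 5 had the highest 3p levels and the lowest 5p levels of all 18 libraries, except that without TMM scaling naive replicate 1 was below replicate 5 in 5p (0.0409% against 0.0413% of miRNA counts). The CVs of this group were 24.4% for 3p and 22.8% for 5p. The other 4 bPYX+NT3 rats were close together in miR-22-3p, at 27726 ± 1397 CPM (SD, n = 4), and had 539 ± 61.4 CPM (SD, n = 4) of miR-22-5p.

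**Figure D1:**
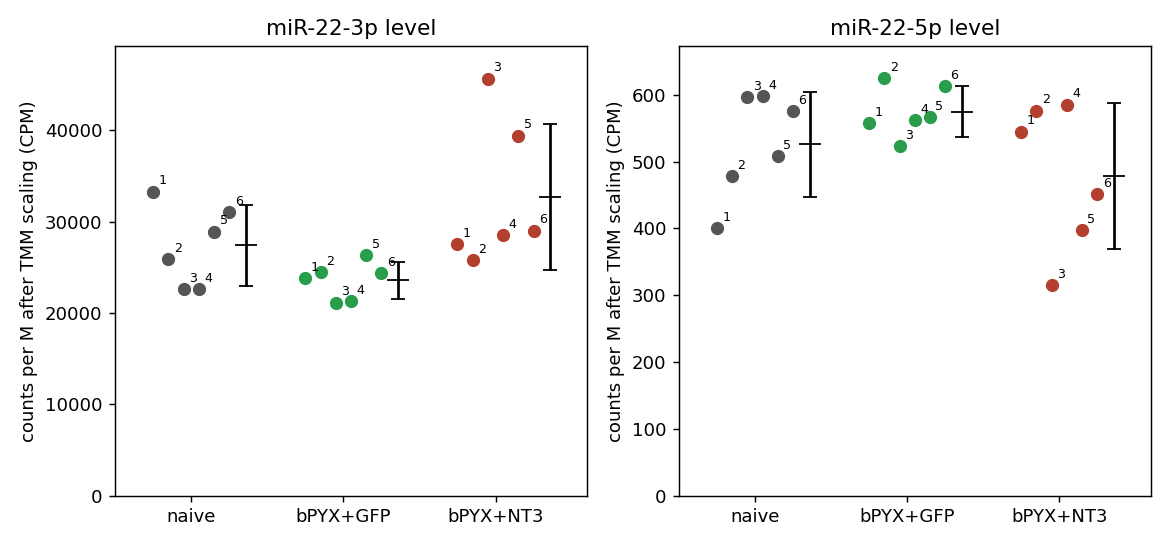
Level of miR-22-3p (left) and miR-22-5p (right) in counts per M after TMM scaling, 1 point per rat with its replicate number, and the mean with SD (n = 6) in black for each group. bPYX+NT3 replicates 3 and 5 are the 2 highest points on the left, at 45659.5 and 39412 CPM, and the 2 lowest on the right, at 315 and 397 CPM.

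The 3 comparisons between groups asked what bPYX with the control virus changed, what NT3 added to it, and how injured rats given NT3 stood against naive rats. They share groups and so are not independent. After injury, miR-22-3p was 23579 ± 2010 CPM in bPYX+GFP and 27386 ± 4432 CPM in naive rats (SD, n = 6 each). The log2 fold change was -0.22 ± 0.10 (SE) in edgeR's quasi-likelihood test, with a Benjamini-Hochberg adjusted p = 0.232 over 373 miRNAs. Its unadjusted p passed 0.05, as did that of 79 miRNAs in all, 21.2% of those tested. The adjusted threshold was passed by 9, or 2.41%, with neither arm of miR-22 among them. Without naive replicate 1 the log2 fold change of miR-22-3p was -0.15, and its unadjusted p no longer passed (edgeR adjusted p = 0.411). The unadjusted p was under 0.05 in only 8 of 21 alternatives; it was lost with each other scaling, with DESeq2, without the low count filter, in the fit of all 18 libraries, and also when naive rat 5 or 6, or any bPYX+GFP rat except 5, was left out. miR-22-5p was 575 ± 38.0 against 526 ± 78.5 CPM, and its log2 fold change was 0.13 ± 0.09 (edgeR adjusted p = 0.474). Of the bPYX+GFP rats, 5 of 6 lay above the naive mean of miR-22-5p. Without naive replicate 1 its log2 fold change was 0.06.

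With NT3, miR-22-3p was 32662 ± 7973 CPM against 23579 ± 2010 CPM in bPYX+GFP rats (SD, n = 6 each), which is 1.40 times as high by the fit. All 6 bPYX+NT3 rats lay above the bPYX+GFP mean, and 5 lay above the highest bPYX+GFP rat. As a share of the library's miRNA total, without TMM scaling, 6 of 6 were again above the bPYX+GFP mean, but only 2, replicates 3 and 5, exceeded the highest bPYX+GFP rat, replicate 5 at 2.96%. The log2 fold change was 0.48 ± 0.14 (SE), with an edgeR adjusted p = 0.217, from an unadjusted p that passed 0.05 and ranked 6 of 373. No miRNA passed the adjusted threshold in this comparison, 0% of those tested by edgeR and also none by DESeq2, while 32, or 8.58%, had an unadjusted edgeR p under 0.05. The 3p difference therefore failed the correction for 373 tests, with its direction shared by 6 of 6 rats. miR-22-5p went the other way in mean, at 478 ± 109 against 575 ± 38.0 CPM. Its log2 fold change was -0.26 ± 0.13 (edgeR adjusted p = 0.587), with 4 of 6 bPYX+NT3 rats below the bPYX+GFP mean and 3 below the lowest bPYX+GFP rat.

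The size of these differences rested largely on bPYX+NT3 replicates 3 and 5. Leaving out both, a setting chosen after the values were seen, gave log2 fold changes of 0.20 for miR-22-3p (edgeR adjusted p = 0.721, unadjusted still under 0.05) and -0.12 for miR-22-5p (adjusted p = 0.961). The remaining 4 rats had 25828 to 29003 CPM of miR-22-3p, against 21125 to 26339 CPM in bPYX+GFP rats.

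Against naive rats, the bPYX+NT3 group had log2 fold changes of 0.25 ± 0.15 for miR-22-3p (edgeR adjusted p = 0.400) and -0.14 ± 0.15 for miR-22-5p (adjusted p = 0.710), neither with an unadjusted p under 0.05. Here 51 miRNAs, 13.7%, had an unadjusted edgeR p under 0.05, and 0, or 0%, an adjusted one. DESeq2 called 1. For miR-22-3p, 5 of 6 bPYX+NT3 rats lay above the naive mean and 2 above the highest naive rat. Without naive replicate 1 the log2 fold change of miR-22-3p was 0.32, and its unadjusted p fell just under 0.05 (edgeR adjusted p = 0.357). Without bPYX+NT3 replicates 3 and 5 the 3p difference shrank to 0.010 and that of 5p turned to 0.033 on the log2 scale.

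The ratio of the arms within a library needs no scaling between libraries, since both strands were counted in the same reads. The log2 ratio of 3p to 5p counts was 6.38, 5.76, 5.24, 5.24, 5.83 and 5.75 in naive replicates 1 to 6. It was 5.42, 5.29, 5.34, 5.25, 5.54 and 5.31 in bPYX+GFP rats, all of them in a narrow band at the low end of the naive range. In bPYX+NT3 rats it was 5.66, 5.49, 7.18, 5.61, 6.63 and 6.01. Only replicate 2 of this group overlapped the bPYX+GFP rats.

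The mean log2 ratio was 5.70 ± 0.42 for naive rats, 5.36 ± 0.11 with GFP and 6.10 ± 0.67 with NT3 (SD, n = 6 each). bPYX+NT3 was above bPYX+GFP by 0.74 ± 0.28 (SE), or 1.67-fold, in a two-sided exact permutation test over 924 splits (p = 0.00433, adjusted 0.0130 over 3 comparisons). This adjustment does not cover the choice of miR-22 by its spread between libraries. The groups also differ in SD, so the p does not separate a shift in mean from a difference in spread. The smallest p this design allows is 0.00216. The difference was 0.33 without bPYX+NT3 replicates 3 and 5 (exact permutation p = 0.00952, adjusted 0.0286). The adjusted exact p was 0.0520 without bPYX+GFP replicate 1, 0.0649 without replicate 3 and 0.0714 without replicate 2, 4 or 6, while the difference stayed between 0.72 and 0.75.

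bPYX+GFP was below naive by 0.34 ± 0.18 on this log2 ratio (exact permutation p = 0.0736, adjusted 0.110). All 6 bPYX+GFP rats lay below the naive mean, but none below the lowest naive rat. The adjusted exact p was 0.0357 without naive replicate 3 and also without naive replicate 4, the naive rats of lowest ratio. Without naive replicate 1, the one of highest ratio, the difference was -0.21 (exact permutation p = 0.147, adjusted 0.221). bPYX+NT3 and naive rats differed by 0.39 ± 0.33 (exact permutation p = 0.260, adjusted 0.260), and by -0.011 without bPYX+NT3 replicates 3 and 5. The difference of their medians was 0.078 (exact permutation p = 0.857). That of their means was 0.18 without bPYX+NT3 replicate 3 alone.

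**Figure D2:**
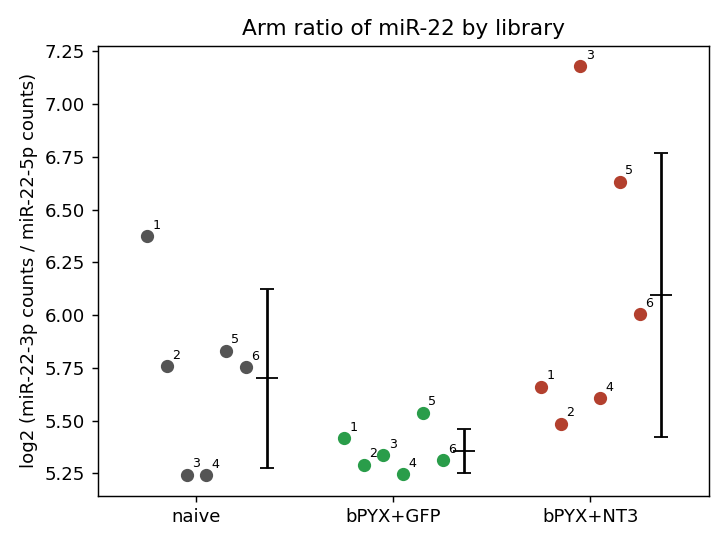
Log2 of miR-22-3p counts over miR-22-5p counts, 1 point per rat with its replicate number, and the mean with SD (n = 6) in black for each group. The bPYX+GFP rats lie between 5.25 and 5.54, and 5 of the 6 bPYX+NT3 rats lie above all of them.

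Counting error was small against these gaps. It came to 0.282% of the level for miR-22-3p and 2.04% for miR-22-5p on average, against CVs over the 18 libraries of 22.8% and 16.3%. The counting error of the log2 ratio was 0.0254 to 0.0376 per library. Reads copied during amplification are not independent molecules, so these errors cover counting alone.

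Over the 18 libraries the arms ran against each other. The correlation of miR-22-3p with miR-22-5p in log2 CPM was r = -0.822 (permutation p = 0.00017, adjusted 0.00085 over 5 relations), and Spearman's rho was -0.591 (permutation p = 0.0108, adjusted 0.0539). Without the 2 libraries farthest from the median in miR-22-3p, bPYX+NT3 replicates 3 and 5, r was -0.537 (permutation p = 0.0307). Spearman's rho was then -0.418, which was not tested. With each library centred on its group mean, r was -0.767 (permutation p = 0.00022). Within single groups, r was -0.685 for naive rats (exact permutation p = 0.122), 0.566 with GFP (p = 0.210) and -0.943 with NT3 (p = 0.00694), with n = 6 in each. Spearman's rho was -0.714, 0.771 and -0.829 in the same order (exact permutation p = 0.136, 0.103 and 0.0583), and a difference between groups in this relation was not tested. No correlation of either arm with the miRNA total or the share of reads with low alignment quality passed 0.05 over all 18 libraries (adjusted permutation p of 0.544 or more). Within naive, bPYX+GFP and bPYX+NT3 rats, r with the total was -0.257, -0.692 and 0.282 for miR-22-3p. For miR-22-5p it was 0.68, -0.681 and -0.304. With low alignment quality, r within groups lay between -0.519 and 0.271. These values within groups were not tested.

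**Figure D3:**
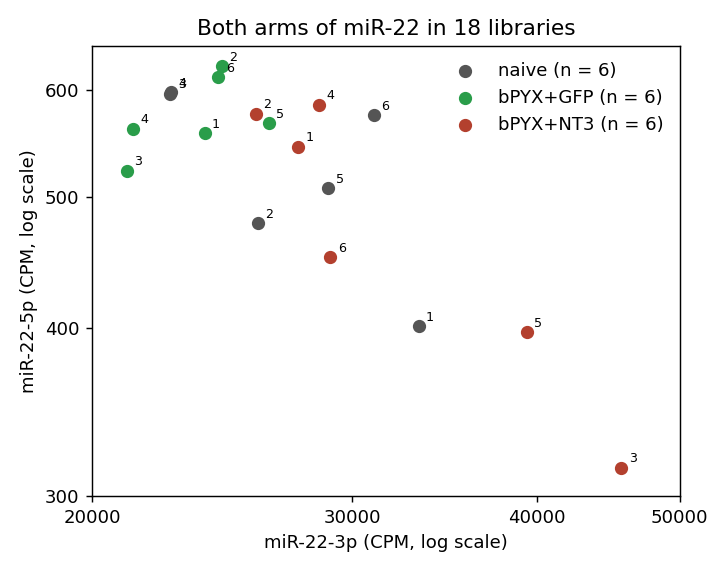
miR-22-5p against miR-22-3p in 18 libraries, both in counts per M on log axes, coloured by group and numbered by replicate. Levels run from high 5p and low 3p at the upper left to bPYX+NT3 replicates 3 and 5 and naive replicate 1 at the lower right, with r = -0.822.

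Few of the other hairpins had strands as opposed as these. Both arms were tested for 114 precursors, and the median rho between arms was 0.146. It was below 0 in 37 precursors and lower than that of miR-22 in 2, miR-195 at -0.670 and miR-361 at -0.616. The SD of the log2 arm ratio over 18 libraries was 0.535 for miR-22, the 11th widest, against a median of 0.316. The 5 widest were miR-672 (0.84), miR-540 (0.83), miR-144 (0.66), miR-708 (0.65) and miR-34a (0.64), whose lower arm averaged 9.56 to 51.4 counts per library. miR-22-5p averaged 2460 counts. Among the 16 precursors whose lower arm averaged at least 1000 counts, miR-22 had the widest spread of the ratio. That cut was not planned. Since miR-22 was chosen for its spread, these ranks are a description and no separate finding.

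The spread of miR-22-3p was wider than that of its neighbours in level. The 3 miRNAs just above it by mean CPM were miR-100-5p, miR-27b-3p and let-7i-5p, with CVs of 8.42% to 10.5%. The 3 just below were miR-182, miR-126a-3p and let-7g-5p, with CVs of 7.07% to 11.2%. Of the 65 miRNAs with a mean of at least 1000 CPM, 4 had a higher CV than the 22.8% of miR-22-3p, and the median was 12.7%. In level, miR-182 at 25160 ± 2534 and miR-126a-3p at 24450 ± 2739 CPM lay within 1 SD of miR-22-3p at 27876 ± 6352 CPM. Differences in level between these miRNAs were not tested. let-7i-5p, the next above, was at 40650 ± 4259 CPM. For miR-22-5p, with a CV of 16.3%, the neighbours miR-485-3p, miR-409a-5p and miR-134-5p above and miR-384-5p, miR-30c-2-3p and miR-450a-5p below had CVs of 8.95% to 19.3%, and their means of 501 to 564 CPM lay within 1 SD of its own. The median CV of all tested miRNAs was 16.1%.

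**Figure D4:**
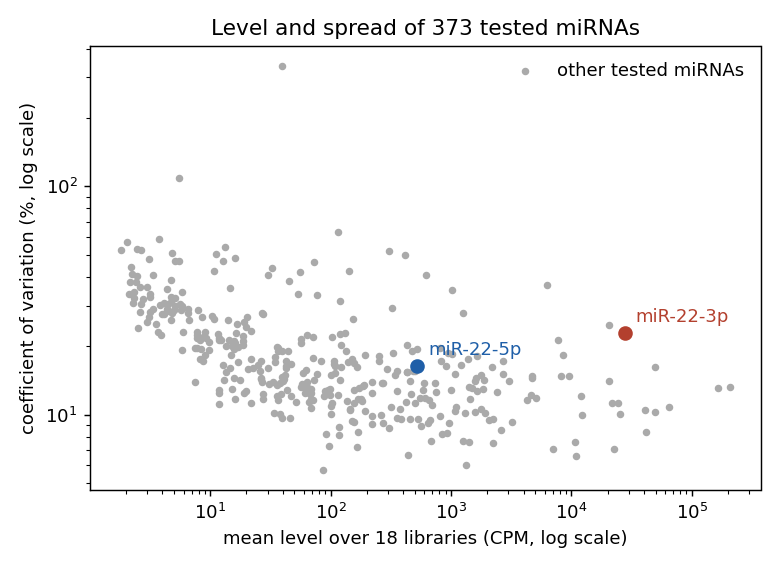
Coefficient of variation (%) against mean level (counts per M) over 18 libraries for the 373 tested miRNAs, both axes logarithmic, with the arms of miR-22 in colour. miR-22-3p lies above nearly all miRNAs of its level with 22.8%, while miR-22-5p lies among its neighbours with 16.3%.

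The miRNAs whose levels ran most like miR-22-3p over the 18 libraries, by Spearman's rho of log2 CPM, were miR-384-5p (0.831), miR-181c-5p (0.825), miR-592 (0.80), miR-138-5p (0.789) and miR-34a-5p (0.781). miR-138-5p is enriched in neurons and was on the neuronal list, and miR-34a-5p is a target of p53. These libraries share their depth scaling, so the values are descriptions. miR-181c-5p measured 216 CPM in bPYX+NT3 replicate 3 and 186 in replicate 5, and its mean was 117 for naive rats, 96.5 with GFP and 143 with NT3. miR-384-5p measured 724 and 747 CPM in these 2 rats, with group means of 467, 481 and 604. For each of the 5, bPYX+NT3 replicates 3 and 5 were among the 4 highest libraries.

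The mature sequences of these miRNAs are shown because 4 of the 5 end, as miR-22-3p does, in GU. The last 2 bases are in capitals (RefSeq, GRCr8), and the likeness was noticed after the values were seen:
miR-22-3p: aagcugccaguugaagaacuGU
miR-384-5p: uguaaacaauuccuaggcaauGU
miR-181c-5p: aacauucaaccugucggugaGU
miR-592: auugugucaauaugcgaugauGU
miR-138-5p: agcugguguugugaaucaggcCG
miR-34a-5p: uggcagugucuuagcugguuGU

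A sequence was matched by name for 350 of the 373 tested miRNAs, and 47 of these, 13.4%, end in GU. The median rho with miR-22-3p was 0.159 over the other 46 that end in GU and -0.08 over the rest. The 46 include the 4 miRNAs above that were picked for high rho, so the medians are no separate check of this likeness. These letters are a description of the strands' ends in RefSeq, and the ends of the reads themselves were not used here. miR-24-2-5p, which ran against miR-22-3p (rho -0.616), also ends in GU. None of the 5 shares the seed of miR-22-3p.

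The miRNAs that ran most against miR-22-3p were miR-204-3p (rho -0.804), miR-204-5p (-0.781), miR-27a-3p (-0.738), miR-1843a-3p (-0.711) and miR-455-3p (-0.705). Both arms of miR-204 were thus in this set, where those of miR-22 moved in opposite directions. miR-204-5p measured 5315 CPM in bPYX+NT3 replicate 3 and 6030 CPM in replicate 5, the lowest of 18 libraries, and its mean was 8935 ± 1637 for naive rats, 8781 ± 772 with GFP and 7636 ± 1880 CPM with NT3 (SD, n = 6 each).

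miR-22-5p also had close company. miR-24-2-5p (rho 0.920), miR-132-5p (0.851), miR-136-5p (0.808), miR-204-3p (0.781) and miR-376b-5p (0.759) ran most like it. All 5 were lowest in bPYX+NT3 replicate 3, and 4 of them were second lowest in replicate 5, the exception being miR-136-5p. miR-24-2-5p, the minor strand of a miR-24 hairpin, measured 1733 and 2045 CPM in these rats, against means of 2832 for naive rats, 2890 with GFP and 2432 with NT3. miR-132-5p measured 70.2 and 82.0 CPM, against means of 136, 147 and 120.

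miR-132-5p is encoded on the same chromosome and strand as miR-22, at chr10:60522055-60522076 (+). It is shown with its last 2 bases in capitals, for comparison with the 5p arm of miR-22 in the same form:
miR-132-5p: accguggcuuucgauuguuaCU
miR-22-5p: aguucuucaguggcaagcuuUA
Its partner strand miR-132-3p, known as a CREB target in neurons, did not follow miR-22-5p (rho -0.377 over 18 libraries), nor did it follow miR-22-3p closely (0.174). In bPYX+NT3 replicate 3 miR-132-3p was second highest of the 18 libraries while miR-132-5p was the lowest. miR-212-5p and miR-212-3p, named after seeing miR-132-5p in this set because miR-212 is its neighbouring hairpin, had rho of 0.209 and -0.01 with miR-22-5p.

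**Figure D5:**
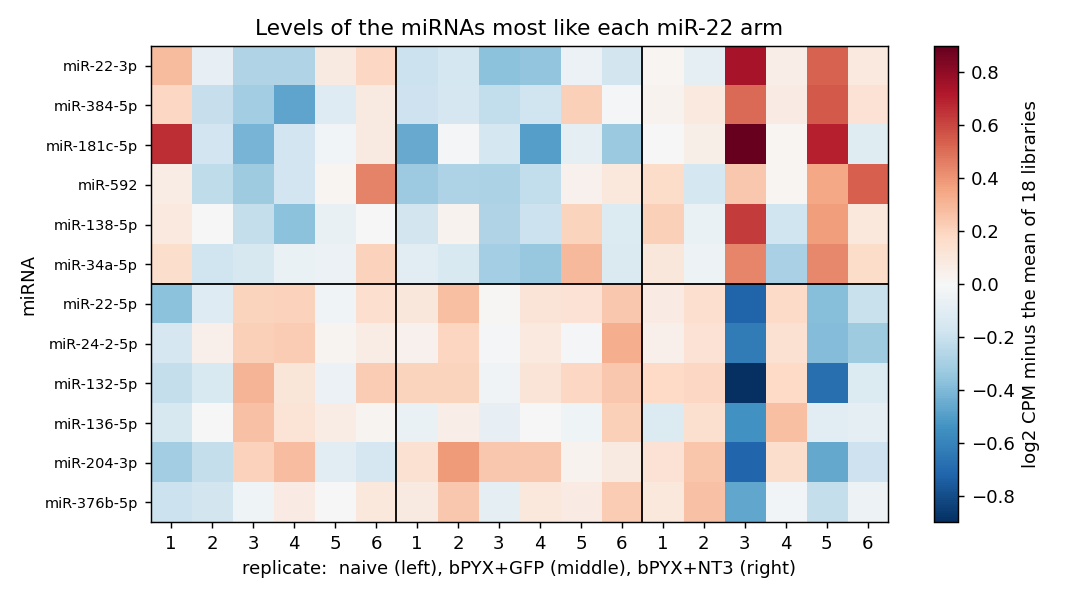
Log2 CPM minus the mean of 18 libraries for miR-22-3p with the 5 miRNAs most like it (upper block) and miR-22-5p with the 5 most like it (lower block), columns being the 6 rats of each group by replicate number. bPYX+NT3 replicates 3 and 5 are high in the upper block and low in most of the lower block, and naive replicate 1 goes the same way.

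None of the 14 miRNAs named for likeness passed the adjusted threshold of edgeR when NT3 was set against GFP, where 0% of all tested did. With an unadjusted edgeR p under 0.05 were 5 of the 14, against 8.58% of all tested miRNAs. These were miR-181c-5p (log2 fold change 0.58), miR-592 (0.38), miR-384-5p (0.34), miR-27a-3p (-0.26) and miR-455-3p (-0.31), which had the smallest p of all miRNAs tested in that comparison (adjusted p = 0.217). Since they were chosen for following miR-22, their directions repeat its own.

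Lists of miRNAs known for particular cell types were summed in each library. The glial list (miR-338-3p, miR-219a-5p, miR-219a-2-3p and miR-204-5p) summed to 6924 to 11920 CPM for naive rats, 7354 to 9610 with GFP and 5316 to 10560 with NT3. bPYX+NT3 replicate 3 was the lowest of 18 libraries at 5316 CPM, replicate 5 the next at 6031 and naive replicate 1 the next at 6924. These are the 3 libraries of highest arm ratio. The sum was nearly all miR-204-5p, which was already named above for running against miR-22-3p and so adds nothing separate. miR-338-3p and miR-219a-2-3p are listed at 0 in every library, and miR-219a-5p had at most 7 counts, so 1 of 4 members was tested.

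The list of 7 muscle and heart miRNAs summed to 732 to 1125 CPM in the 18 libraries, of which 3 were tested, with miR-1-3p and miR-133a-3p listed at 0. bPYX+NT3 replicates 5 and 3 were the lowest, at 732 and 757 CPM, while naive replicate 1 was 7th highest at 913 CPM. Most of the sum was miR-499-5p, at 736.5 CPM on average. Its log2 fold change was -0.13 with NT3 against GFP and -0.24 against naive, the latter with an unadjusted edgeR p under 0.05 but not an adjusted one. With NT3 against GFP, miR-206-3p was at -0.27 and miR-133b-3p at 0.21. Against naive rats they were at 0.23 and 0.19, opposite in direction to miR-499-5p. None of these values of miR-206-3p and miR-133b-3p had an unadjusted edgeR p under 0.05. miR-1b, a relative of miR-1-3p that was not on the list and was looked at after the values were seen, averaged 9565 CPM. Its log2 fold change was 0.17 with NT3 against GFP and 0.30 against naive (edgeR adjusted p = 0.247). The sensory neuron list ranged from 23640 to 31010 CPM for naive rats, 28960 to 33100 with GFP and 25920 to 32950 with NT3, with 25920 in bPYX+NT3 replicate 3 and 31020 in replicate 5. Its member miR-182 had log2 fold changes of 0.20 in GFP and 0.19 in NT3 rats against naive rats, with unadjusted edgeR p-values under 0.05 but not adjusted ones. Those of miR-96-5p, its other tested member, were 0.07 and -0.04, neither with an unadjusted edgeR p under 0.05. The list of other neuronal miRNAs, 3 of 5 tested, ran from 7241 to 11370 CPM and was lowest in bPYX+NT3 replicate 3, but its members differed. miR-128-3p, at 8142 CPM on average, made up most of the sum. miR-138-5p was instead highest of all libraries in that rat, at 1552 CPM, and its log2 fold change with NT3 was 0.29 against naive. miR-137-3p had log2 fold changes of 0.44 with NT3 against GFP and 0.56 against naive. These 3 differences had unadjusted edgeR p-values under 0.05 but not adjusted ones. miR-128-3p went the other way, with log2 fold changes of -0.10 with NT3 against GFP and -0.21 against naive. Neither had an unadjusted edgeR p under 0.05. The blood and immune list, 7 of 7 tested, spread from 923 to 3008 CPM, with 1942 and 1502 CPM in bPYX+NT3 replicates 3 and 5. Smooth muscle miRNAs (2 of 2 tested) summed to 41020 to 68810 CPM, nearly all of it miR-143-3p, with 57310 and 58030 CPM in bPYX+NT3 replicates 3 and 5. The log2 fold changes of miR-143-3p were 0.010 in GFP against naive rats, -0.002 with NT3 against GFP and -0.008 with NT3 against naive. The other member, miR-145-5p, was at -0.50 in GFP against naive rats and 0.40 with NT3 against GFP. These are the same directions as miR-22-3p, with unadjusted edgeR p-values under 0.05 but not adjusted ones. With NT3 against naive, miR-145-5p was at -0.12, the opposite direction to miR-22-3p, without an unadjusted edgeR p under 0.05. Endothelial miRNAs (1 of 2) summed to 19520 to 29100 CPM with the lowest value in bPYX+NT3 replicate 3, and fibroblast ones (3 of 3) to 1387 to 2459 CPM. Of the fibroblast list, miR-199a-5p had a log2 fold change of -0.21 in GFP against naive rats, with an unadjusted edgeR p under 0.05 but not an adjusted one. The part of cell make-up in the levels of either arm was not tested.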

How the data were processed

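Small RNA libraries were made by the authors from total RNA of the ganglia of each rat, with no molecular identifiers stated, and sequenced as single-end reads. The authors trimmed adapters, aligned with Bowtie2 to Rnor_5.0 and counted with HTSeq. The deposited values are raw read counts per mature miRNA, without normalization. Demultiplexing by bcl2fastq 1.8.4 is given in the submitters' processing notes, and the other tool versions are not given in the sources used here. Reads of low alignment quality, 31.4 ± 1.88% of all entries, were given to no miRNA, so miRNAs with several near-identical copies can be listed at 0. The 5 rows of such totals were left out.

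miRNAs with more than 10 counts in at least 6 of 18 libraries were tested with edgeR 4.0.16 (quasi-likelihood F test, TMM scaling, R 4.3.3) for each pair of groups, with Benjamini-Hochberg adjustment and a threshold of 0.05. The study's analysis excluded an outlying rat; all rats were kept here and left out in turn. Levels are CPM after TMM scaling, with 0.5 added before taking logs. Arm ratios were compared by exact permutation and correlations by 100000 permutations (scipy 1.17.1). The edgeR step was tested on simulated data. Hairpins were folded with RNAfold 2.7.2. No replicates agreed within sampling noise (lowest chi-square per degree of freedom 39.6). Rats are separate animals, and groups follow the titles in the labels.

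Alternatives were DESeq2 1.42.0, other scalings, filters and priors, a fit of all 18 libraries, a replicate block, and leaving out each library. Named miRNAs were the arms of miR-22; for each arm the 5 tested miRNAs of highest rho with it, and for miR-22-3p the 5 of lowest rho; 3 neighbours in level on either side of each arm; miRNAs of the same seed; and the 5 precursors of widest arm ratio. miR-22 and all lists were chosen with earlier results of these data known.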

Additional observations from a re-analysis of the deposited data

How the results depend on the processing

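No alternative gave either arm an adjusted edgeR or DESeq2 p under 0.05 in any comparison; the range was 0.153 to 0.418 for miR-22-3p after injury and 0.120 to 0.721 with NT3 against bPYX+GFP. Leaving out bPYX+NT3 replicates 3 and 5 together, added after the data were seen, turned miR-22-5p against naive to 0.033 and the arm ratio against naive to -0.011 (log2). Leaving out single rats moved the arm ratio of bPYX+NT3 over bPYX+GFP between 0.52 and 0.86 (adjusted exact p 0.00649 to 0.0714, above 0.05 without bPYX+GFP replicate 1, 2, 3, 4 or 6) and that of bPYX+GFP over naive between -0.44 and -0.21. With replicate numbers as a block the ratio with NT3 over GFP was again 0.74, higher in 6 of 6 same-numbered pairs (exact p = 0.03125, adjusted 0.09375). That p is the smallest that 6 pairs allow, so beside the other comparisons the adjusted value could not pass 0.05. miR-22-3p was 0.45 (edgeR adjusted p = 0.281). The labels do not say that equal numbers pair the rats. The correlation of same-numbered libraries ran from -0.384 to 0.371, and 6 of 18 matched their own number best. These values were not tested against chance and do not settle whether numbers pair the rats. Under the block miR-22-5p with NT3 against GFP was -0.29, with an unadjusted p now under 0.05 (edgeR adjusted p = 0.352), and the miRNAs past the adjusted threshold after injury were 7 instead of 9. It moved no other call of either arm or of the arm ratio across the adjusted threshold.

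The number of miRNAs past the adjusted threshold after injury was 9, and 23 with DESeq2, 3 to 20 without single rats (20 without naive replicate 2, 3 without naive replicate 4 or bPYX+GFP replicate 1, 4 without naive replicate 3 or bPYX+GFP replicate 5, 5 without bPYX+GFP replicate 4). For bPYX+NT3 against naive it was 0, 1 with DESeq2, with a likelihood ratio test or in the fit of all libraries, 1 without bPYX+NT3 replicate 1 and 4 without replicate 4. The 32 miRNAs with an unadjusted p under 0.05 for NT3 against bPYX+GFP became 54 without the filter, 54 without bPYX+NT3 replicate 4 and 20 without replicates 3 and 5. The 51 against naive became 32 without bPYX+NT3 replicate 3 and 25 without 3 and 5. The causes were not tested.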
